A study of Mus musculus with 65 samples.

Results

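The 10 genes described here mark the supporting cells of the cochlea or act in Notch signalling, and they were read in single outer hair cells, a different cell type. They are 6 supporting cell genes (Sox2, Prox1, Fgfr3, Gjb2, Gjb6 and Slc1a3) and 4 Notch pathway genes (Hes6, Dll1, Jag2 and Notch1), taken by symbol from the 55292 genes of the deposited count table, where all 10 were found. The study picked 65 outer hair cells by hand from mouse cochleae at postnatal day 10. The 48 WT cells came from mice with the alleles Slc26a5FlpO/+ and Rosa26FSF-H2BEGFP/+, in which a recombinase expressed from the prestin gene switches on a nuclear green fluorescent reporter in outer hair cells. The 17 cells labelled Casz1 CKO carried these alleles as well, and in addition Atoh1Cre/+ and Casz1flox/flox, so that Cre was present in this group alone. The labels name no animal or litter. Each genotype was therefore taken as 1 sample, no test was run, and the differences below have no replicate check.

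Supporting cells, among them the pillar and Deiters' cells, surround each hair cell, hold it in place and are coupled to each other by gap junctions. During development a hair cell shows the ligands Dll1 and Jag2 on its surface. They bind Notch1 on the neighbouring cell, the receptor is cleaved, and its intracellular part joins Rbpj and a Mastermind protein to switch on Hes and Hey genes, which keep the neighbour from becoming a hair cell. Sox2 is a transcription factor of the sensory progenitors that stays on in supporting cells.

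Most members were detected in a minority of cells, at levels that ran from 1 read to 351 CPM (counts per 1000000 counts of the cell). Of 650 values, 10 genes in 65 cells, 134 were above 0. Of these, 42 were below 10 counts, 28 of them being a single count, and 73 were at 10 CPM or more. At least 1 member was counted in 44 of 48 WT cells, and for the CKO-labelled group in 13 of 17. Summed over a group, 6 members reached 5 CPM in the higher group, namely Fgfr3, Gjb2, Gjb6, Hes6, Dll1 and Jag2, while Sox2, Prox1, Slc1a3 and Notch1 did not.

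**Figure D1:**
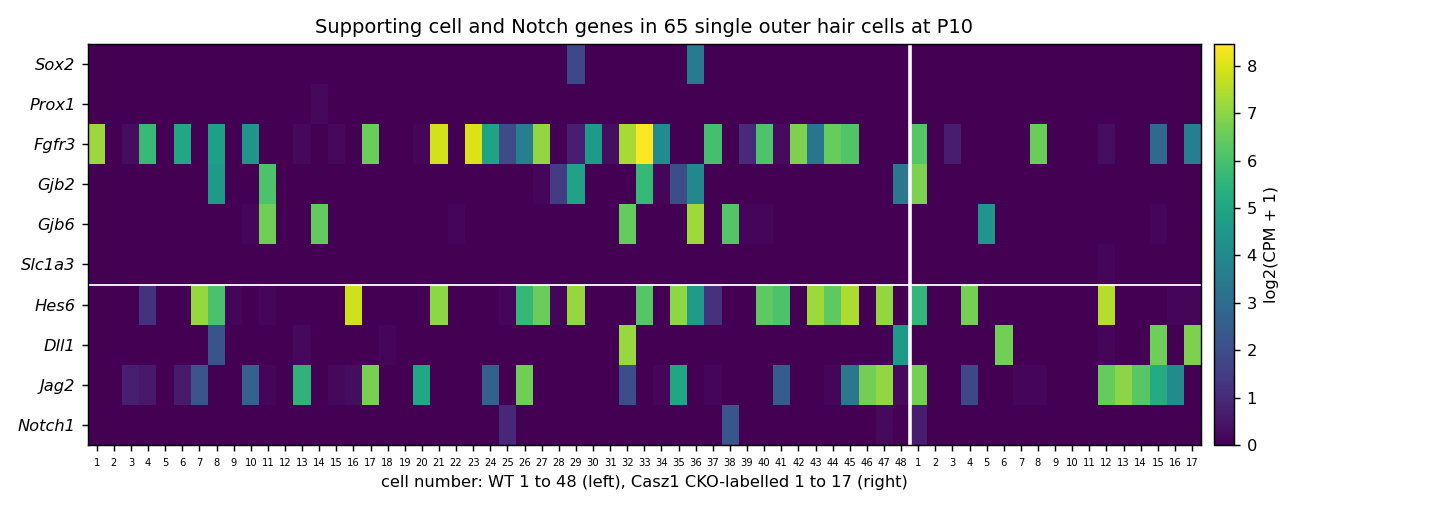
Each column is 1 cell, WT cells 1 to 48 on the left and CKO-labelled cells 1 to 17 on the right, each row is 1 member, and colour gives log2(CPM + 1). Fgfr3, Hes6 and Jag2 are scattered over many columns, the rows of Prox1 and Slc1a3 are nearly empty, and few columns hold several of the upper 6 genes.

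The stretches before the start sites of 5 members are shown because those of Hes6, Fgfr3 and Dll1 hold a motif that was searched for, while Gjb2 and Gjb6, which lie side by side, do not. They come from RefSeq on GRCm38.p6, the build of the files (mm10), and are printed 5′ to 3′ on the gene's strand. Each run ends before the first base of the annotated gene. The search covered the 250 bases before the start. Capitals mark the letters CAGCTG, an E-box with a GC core of the kind that Atoh1-type factors bind, which read the same on both strands.
Hes6, chr1:91414039-91414288, minus strand: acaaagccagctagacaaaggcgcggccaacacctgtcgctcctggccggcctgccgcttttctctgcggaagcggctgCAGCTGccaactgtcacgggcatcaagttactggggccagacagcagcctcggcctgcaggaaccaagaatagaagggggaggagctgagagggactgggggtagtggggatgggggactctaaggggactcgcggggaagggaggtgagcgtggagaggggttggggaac
Fgfr3, chr5:33721474-33721673, plus strand: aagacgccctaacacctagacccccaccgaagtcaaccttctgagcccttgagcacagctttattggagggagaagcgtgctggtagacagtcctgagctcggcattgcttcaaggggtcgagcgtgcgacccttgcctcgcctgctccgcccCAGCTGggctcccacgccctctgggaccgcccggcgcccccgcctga
Dll1, chr17:15376933-15377182, minus strand: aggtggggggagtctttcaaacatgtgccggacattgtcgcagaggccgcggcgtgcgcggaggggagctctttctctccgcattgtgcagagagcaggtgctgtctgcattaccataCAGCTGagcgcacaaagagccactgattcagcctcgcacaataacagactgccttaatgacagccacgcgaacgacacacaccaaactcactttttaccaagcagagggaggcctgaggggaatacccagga
Gjb2, chr14:57104703-57104952, minus strand: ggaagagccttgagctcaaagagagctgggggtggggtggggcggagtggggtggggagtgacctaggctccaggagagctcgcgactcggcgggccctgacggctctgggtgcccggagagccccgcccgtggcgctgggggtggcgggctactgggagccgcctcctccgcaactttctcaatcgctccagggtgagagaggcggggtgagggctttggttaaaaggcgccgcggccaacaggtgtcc
Gjb6, chr14:57133612-57133861, minus strand: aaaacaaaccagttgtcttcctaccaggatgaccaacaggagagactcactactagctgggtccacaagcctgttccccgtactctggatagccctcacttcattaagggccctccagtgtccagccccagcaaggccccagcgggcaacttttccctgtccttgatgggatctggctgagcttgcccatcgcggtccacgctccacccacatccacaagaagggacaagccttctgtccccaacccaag
All 10 members matched the RefSeq table, with 14 start windows. CAGCTG was found in 4 of the 14, namely 1 of Fgfr3, both of Hes6 and 1 of Dll1, and in 13.0% of all 32817 windows of the same length. TGGGAA, the core letters bound by Rbpj (TTCCCA on the other strand, no overlap with CAGCTG), was found in 1 of the 14, a second window of Prox1, and in 21.6% of all windows. The windows of Gjb2 and Gjb6 held neither.

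Some facts of the whole series bear on every comparison. Totals, in units of 1000000 counts, ran from 7.46 to 17.1 over the WT cells (median 11.5) and from 8.24 to 15.3 over the CKO-labelled ones (median 12.3), with medians of 7586 and 7417 genes detected. Casz1 itself stood at 53.3 CPM over the WT cells and 46.2 CPM over the CKO-labelled ones, and since the labels do not name the floxed exons, these counts check nothing about its deletion. The groups differed in sex-linked transcripts. Xist reached 10 counts, while 4 Y-linked genes together stayed under 10, in 9 WT and 15 CKO-labelled cells, called Xist-pattern cells. The WT cells fell into runs by their numbers, for which the labels give no batch: mt-Co2 lay between 33.5 and 83.6 CPM in WT cells 1 to 11, between 229 and 644 CPM in cells 12 to 45, and between 100.15 and 111 CPM in cells 46 to 48, beside 94.8 to 283 CPM in CKO-labelled cells. Of the 9 Xist-pattern WT cells 8 belong to the run 1 to 11, so sex and run cannot be told apart there. The part of sex and run in the results was not tested beyond the values given beside them.

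The cells carried the transcripts of outer hair cells. All 14 genes of an outer hair cell list were measured, that is, at 5 CPM or more in the higher group, 7 with higher and 7 with lower CPM in the CKO-labelled group. Ocm, the calcium buffer oncomodulin, ran from 12218 to 61361 CPM over the WT cells and from 30575 to 88794 CPM over the CKO-labelled ones, so every cell had it. Slc26a5, the prestin gene, ran from 54.8 to 2269 CPM and from 226 to 1668 CPM.

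The 2 transcription factors of supporting cells were almost absent. Sox2 (chromosome 3, 34650405 to 34652461, GRCm38, a single exon) had 131 counts in WT cell 36, which is 10.3 CPM, 28 counts in WT cell 29, which is 2.55 CPM, and no count in the other 46 WT cells or in any CKO-labelled cell. The share of WT cells with a count was 4.17% (exact binomial interval 0.509 to 14.3%), and for 0 of 17 cells the interval reaches 19.5%. With 3 counts over the group set in place of none, Sox2 came out 19.3-fold lower in CKO-labelled cells. This value rests on the chosen 3 counts and on WT cell 36 (log2 -4.27 with it and -1.80 without it). The exact conditional 95% limit of the log2 ratio was weaker, at -3.96, and both cover counting error only. Prox1, a homeobox factor of pillar and Deiters' cells (chromosome 1, 190118035 to 190170714), had 1 count in 1 cell, WT cell 14, at 0.134 CPM. No fold is given for it.

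Fgfr3 was found in more cells than the other supporting cell members, and its summed level was lower in the CKO-labelled group. It encodes a receptor for fibroblast growth factors that acts in pillar cell development (chromosome 5, 33721674 to 33737068). In WT cells the lowest value was 0, the median 0.443 CPM and the highest 351 CPM, in cell 33. The CKO-labelled cells had a lowest value and a median of 0 and a highest of 92.8 CPM, in cell 8. The groups overlapped over the whole CKO range, and the 8 highest values were all in WT cells, the first 5 being cells 33, 23, 21, 32 and 1, from 146 to 351 CPM.

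Fgfr3 was detected, with at least 1 count, in 30 of 48 WT cells (62.5%, exact 95% binomial interval 47.4 to 76.0%), and for the CKO-labelled group in 6 of 17 (35.3%, 14.2 to 61.7%). At 10 CPM or more it was found in 20 and 3 cells. Its summed level was 40.7 CPM over the WT cells (exact Poisson limits 40.2 and 41.2) and 12.2 CPM over the CKO-labelled ones (11.7 to 12.7), a log2 ratio of -1.74 (-1.80 to -1.68), or 3.34-fold. These intervals cover counting error only, since reads were not tied to single molecules by identifiers, and the spread between cells was far wider: per-cell CPM was 41.8 ± 76.6 (SD, n = 48 cells) and 10.9 ± 27.6 (SD, n = 17 cells). Of the 816 pairs of 1 CKO-labelled and 1 WT cell, the WT cell was higher in 53.4%, the CKO-labelled cell in 22.3%, and 24.3% were tied at 0.

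Among all 10842 genes that reached 5 CPM in the higher group, 14.5% were at least 2-fold lower in CKO-labelled cells and 15.1% at least 2-fold higher. Among the 6102 of them detected in under 70% of cells of each group, the shares were 21.2% and 22.9%. Of the 6 members that reached 5 CPM, 3 were at least 2-fold lower (Fgfr3, Gjb6 and Hes6), 2 at least 2-fold higher (Dll1 and Jag2), and Gjb2 was neither. Folds of this size were thus common, at 44.1% either way, among genes seen in part of the cells. Counting any difference, 4 of the 10 members and 3 of the 6 at 5 CPM were higher in CKO-labelled cells, beside 50.4% of all genes at 5 CPM and 51.8% of those seen in part of the cells.

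The level of Fgfr3 was not even over the runs of WT cells. It was detected in 6 of 11 WT cells numbered 1 to 11, at a summed 25.8 CPM, in 24 of 34 numbered 12 to 45, at 51.3 CPM, and in none of the 3 numbered 46 to 48. Among Xist-pattern cells it was detected in 6 of 9 (WT) and 5 of 15 (CKO-labelled), at 29.1 and 13.8 CPM, a log2 ratio of -1.07. The ratio moved to -2.56 without CKO-labelled cell 8 and to -2.47 without CKO-labelled cell 1. Reads of G630022F23Rik, whose exons overlap Fgfr3 on the opposite strand, cannot be told apart without the strand setting, but that gene was listed in 2 WT cells only, at up to 25.4 CPM.

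The other receptors of the family were scarce. Fgfr1 was counted in 4 WT cells and 1 CKO-labelled cell, at 4.43 and 0.00500 CPM, Fgfr4 in 3 and 1 cells at 0.852 and 0.0100 CPM, and Fgfr2 in 6 and 1 cells. Fgfr1, Fgfr2 and Fgfr4 were thus under 5 CPM in both groups. Fgfrl1, a receptor without a kinase domain, was at 10.99 CPM over the WT cells and 5.21 CPM over the CKO-labelled ones. It was counted in 13 WT and 4 CKO-labelled cells. Of the 13 genes of the fibroblast growth factor list only Fgfr3 and Fgfrl1 were measured, both at least 2-fold lower in CKO-labelled cells. Among all genes at 5 CPM that were detected in under 70% of cells of each group, 21.2% were lower by as much. A count of 2 genes thus says nothing about the pathway.

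The connexin genes Gjb2 and Gjb6, which encode the gap junction channels that couple supporting cells, were present in few cells, with 2 cells holding both. Both lie on the minus strand of chromosome 14, Gjb2 at 57098600 to 57104702 and Gjb6 at 57123303 to 57133611, with 18600 bases between them. Gjb2 was at 10 CPM or more in WT cells 8 (22.5 CPM), 11 (66.8 CPM), 29 (28.6 CPM), 33 (50.3 CPM) and 36 (14.4 CPM), and in CKO-labelled cell 1 (109.6 CPM). The 5 other WT cells with a count lay between 0.0737 and 9.26 CPM, and the remaining 16 CKO-labelled cells were at 0.

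Summed, Gjb2 was at 4.46 CPM over the WT cells and 7.98 CPM over the CKO-labelled ones, a log2 ratio of 0.84 (0.75 to 0.93). All the CKO counts came from cell 1. Without that cell none was left, and the log2 bound, with 3 counts set in place of none, was -8.10. Without WT cell 11 it was 1.45. Within the Xist-pattern cells the sign turned, with a log2 ratio of -0.11, and against WT cells 1 to 11 it was 0.04. Detection pointed the other way from the summed level, with 10 of 48 WT cells (20.8%, 10.5 to 34.99%) against 1 of 17 CKO-labelled ones (5.88%, 0.149 to 28.7%).

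Gjb6 was at 10 CPM or more in WT cells 11 (97.6 CPM), 14 (84.2 CPM), 32 (86.9 CPM), 36 (149.7 CPM) and 38 (71.6 CPM), and in CKO-labelled cell 5 (20.7 CPM). Another 4 WT cells and CKO-labelled cell 15 had 1 count each. The lowest of the 5 high WT values was thus above the highest CKO value, while most cells of both groups were at 0. Summed, Gjb6 was at 10.2 CPM over the WT cells and 1.30 CPM over the CKO-labelled ones, a log2 ratio of -2.97 (-3.16 to -2.79), and without CKO-labelled cell 5 a single count was left in that group. Other gap junction genes were rarer still: of 22 on the list 8 had no count in any cell and 4 were measured, Gjb2, Gjb6, Gjd2 (8 WT cells and 1 CKO-labelled cell, 8.05 and 0.00500 CPM) and Panx1 (4 and 1 cells, 1.47 and 6.36 CPM). Gja1, a connexin gene of many tissues, was counted in 3 WT cells and 1 CKO-labelled cell, at no more than 0.162 CPM in any cell.

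Slc1a3, the glutamate transporter of the supporting cells around inner hair cells (chromosome 15, 8634124 to 8710764), had 1 count in 1 cell, CKO-labelled cell 12, at 0.119 CPM. For 0 of 48 WT cells the exact binomial interval reaches 7.40%. The neuronal transporter gene Slc1a1 was also counted in 1 cell of each group, and Slc1a2, the main transporter of astrocytes, in 1 WT cell. By contrast the neutral amino acid transporter gene Slc1a5 of the same family was detected in 34 WT and 13 CKO-labelled cells, at 46.2 and 63.4 CPM.

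**Figure D2:**
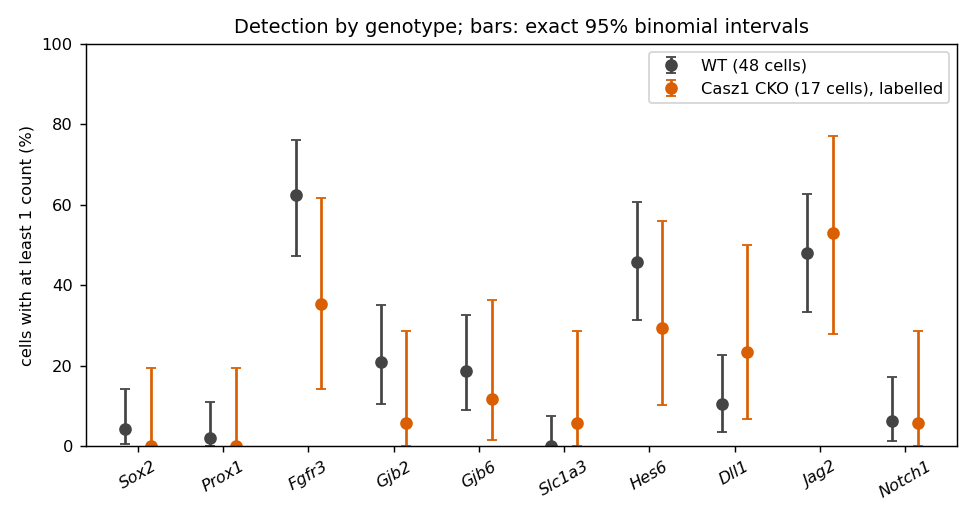
The share of cells with at least 1 count is given for each member in 48 WT cells (grey) and 17 CKO-labelled cells (orange), with exact 95% binomial intervals that cover counting error only. Fgfr3 is detected in 62.5% and 35.3% of cells, and the intervals of the groups overlap for all 10 members.

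The members that encode Notch ligands, Dll1 and Jag2, had higher summed levels in the CKO-labelled group when all cells were used. Dll1 (chromosome 17, 15367354 to 15376872) was at 10 CPM or more in WT cells 32 (142.6 CPM) and 48 (23.4 CPM) and in CKO-labelled cells 6 (100.2 CPM), 15 (96.4 CPM) and 17 (110.9 CPM). WT cell 8 had 3.56 CPM, and WT cells 13 and 18 and CKO-labelled cell 12 had 1 count each. The high values of the groups overlapped, and the highest was a WT cell. The summed level was 3.54 CPM over the WT cells and 18.6 CPM over the CKO-labelled ones, a log2 ratio of 2.39 (2.32 to 2.47), with detection in 5 of 48 cells (10.4%, 3.47 to 22.7%) and 4 of 17 cells (23.5%, 6.81 to 49.9%). Without WT cell 32 the WT level was 0.609 CPM and the log2 ratio 4.93, while against WT cells 46 to 48 alone it was 1.31. Exons of A930024N18Rik, not analysed here, overlap Dll1 on the opposite strand.

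Jag2 (chromosome 12, 112907819 to 112929776) was detected in about equal shares, 23 of 48 WT cells (47.9%, 33.3 to 62.8%) and 9 of 17 CKO-labelled ones (52.9%, 27.8 to 77.0%). The WT cells had a lowest value and a median of 0 and a highest of 135.5 CPM, in cell 47. The CKO-labelled cells had a lowest value of 0, a median of 0.0803 CPM and a highest of 124.8 CPM, in cell 13. The ranges overlapped, and 10 of the 23 WT values were under 10 counts. At 10 CPM or more it was found in 7 WT and 6 CKO-labelled cells, and its summed level was 11.6 and 24.9 CPM, a log2 ratio of 1.11 (1.06 to 1.16).

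The direction for Jag2 depended on which WT cells were used. No WT cell of numbers 1 to 11 exceeded 5.25 CPM, and against them the log2 ratio was 4.84. Of the WT cells numbered 46 to 48, cells 46 and 47 were at 100.7 and 135.5 CPM and cell 48 at 0.171 CPM, and against them it was -1.69. Among Xist-pattern cells Jag2 stood at 1.46 CPM (9 WT) and 17.5 CPM (15 CKO-labelled).

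Notch1, the receptor gene (chromosome 2, 26457903 to 26516663), had 43 counts in WT cell 38 (3.85 CPM), 9 in WT cell 25, 2 in WT cell 47 and 8 in CKO-labelled cell 1 (0.550 CPM). It was thus below 5 CPM in every cell, and its log2 ratio of -1.30 became 0.97 without WT cell 38. Exons of 0610009E02Rik, listed in 9 WT cells at up to 33.03 CPM, and of Gm13568 overlap it on the opposite strand. Notch2, Notch3 and Notch4 were at 0.02, 0.372 and 1.18 CPM in WT cells and at 0.02, 0.00500 and 0.851 CPM in CKO-labelled cells, so that no receptor gene was measured at 5 CPM.

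Hes6 was another widely found member, and its summed level was lower in CKO-labelled cells. Its product belongs to the Hes family but counteracts Hes1 and favours differentiation (chromosome 1, 91411483 to 91414038). WT cells ranged from 0 to 230.6 CPM, in cell 16, with a median of 0, and CKO-labelled cells from 0 to 181.5 CPM, in cell 12, with a median of 0. At 10 CPM or more it was found in 16 of the WT cells and in 3 CKO-labelled cells (1, 4 and 12). The CKO-labelled values lay inside the WT range.

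Detection of Hes6 was 22 of 48 WT cells (45.8%, 31.4 to 60.8%) and 5 of 17 CKO-labelled ones (29.4%, 10.3 to 56.0%). The summed level was 36.8 and 15.9 CPM, a log2 ratio of -1.21 (-1.27 to -1.16), which was -2.09 without CKO-labelled cell 12. Against WT cells 1 to 11, where Hes6 stood at 16.2 CPM, it was -0.03, and among Xist-pattern cells -1.504. Per kilobase of exon, the only scale on which genes can be ranked, Hes6 had the highest level of the 10 members in both groups, at 20.4 and 8.79 CPM per kilobase. Fgfr3 came next in WT cells at 5.68 and Dll1 in CKO-labelled cells at 4.41 CPM per kilobase, and Jag2 and Gjb2 followed there at 3.58 and 3.32. Per cell, Hes6 was at 36.6 ± 60.0 CPM (SD, n = 48 cells) and 19.5 ± 49.4 CPM (SD, n = 17 cells), so neighbours in the order do not differ beyond their spread.

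**Figure D3:**
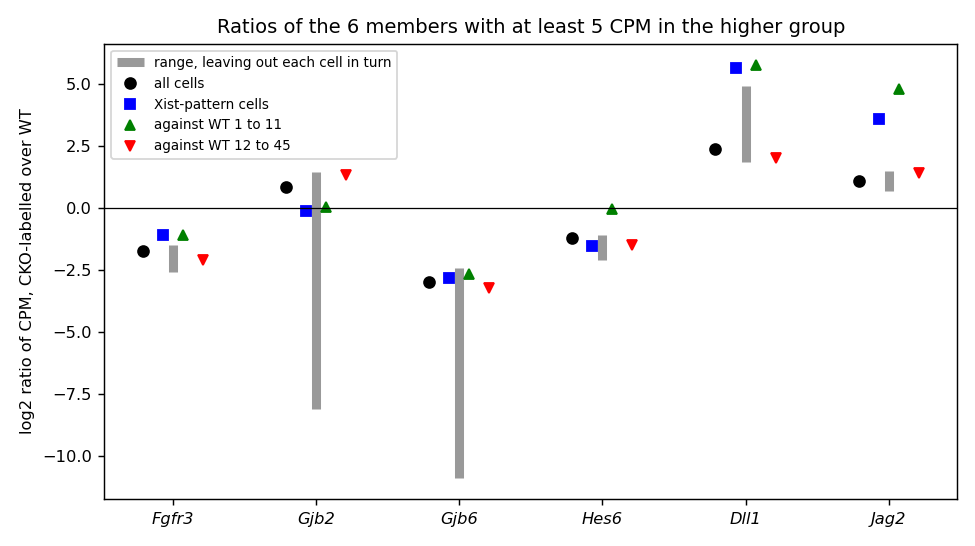
The log2 ratio of summed CPM, CKO-labelled over WT, is shown for the 6 members that reached 5 CPM, over all cells, within the Xist-pattern cells, or with WT cells 1 to 11 or 12 to 45 alone, and the grey bar spans the values found when each cell is left out in turn. The bars of Gjb2 and Gjb6 reach -8.10, a bound, and -10.9 because 1 CKO-labelled cell holds all or nearly all of the counts of that group.

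Each of the rarer supporting cell genes had most of its counts in few cells, and these sets of cells overlapped in part. The 3 WT cells with most counts held 72.8% of the WT counts of Gjb2, 74.4% of those of Gjb6 and 37.0% of those of Fgfr3. Of the 48 WT cells 25 had at least 1 of the 6 genes at 10 CPM or more, and 20 of these had exactly 1. At least 2 were present in 5 WT cells (10.4%, 3.47 to 22.7%), and in 1 CKO-labelled cell (5.88%, 0.149 to 28.7%). They were WT cells 8 and 33 with Fgfr3 and Gjb2, WT cell 11 with Gjb2 and Gjb6, WT cell 32 with Fgfr3 and Gjb6, WT cell 36 with Sox2, Gjb2 and Gjb6, and CKO-labelled cell 1 with Fgfr3 and Gjb2. The mark of 10 CPM was chosen, and counting any read gave 12 and 3 cells. At that mark Fgfr3 was in 20 of the 48 WT cells and Gjb2 and Gjb6 in 5 each. Some cells would thus hold 2 of the genes without any link between them, and overlap beyond that was not tested.

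Pairs of members overlapped to different degrees. Of the 36 cells with Fgfr3, 16.7% had Gjb2, and 16.9% of all cells did. Of the 11 cells with Gjb2, 2 had Gjb6 (18.2%, against 16.9% of all cells), and at 10 CPM or more 2 of 6 did (33.3%, against 9.23%). For Hes6, 9 of the 11 cells with Gjb2 had Hes6 (81.8%, against 41.5% of all cells), and at 10 CPM or more 5 of 6 did, against 29.2%. Gjb6 went the other way, with Hes6 in 3 of its 11 cells (27.3%), and at 10 CPM or more in 1 of 6 (16.7%). The Spearman correlation of Gjb2 and Hes6 over the 65 cells was 0.32, which is weak. It was the highest between members counted in at least 6 cells, and the pair was singled out after its values were seen. These counts are given as a description because cells of 1 group may share an animal. The cells with Sox2, WT 29 and 36, both had Gjb2 and Hes6.

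The 6 cells with several supporting cell genes also held Slc26a5, Ocm and Pou4f3, while Myo7a was low in some of them. Their Slc26a5 levels were 2269 CPM (WT 8), 1816 (WT 11), 909 (WT 32), 512 (WT 33), 652 (WT 36) and 1117 CPM (CKO-labelled 1), within the range of their groups, the first being the highest of all WT cells. Slc26a5 differed between runs, however. It ran from 1238 to 2269 CPM (median 1740) in WT cells 1 to 11, among them cells 8 and 11. In WT cells 12 to 45, among them cells 32, 33 and 36, it ran from 54.8 to 1505 CPM (median 595). The recombinase for the reporter is expressed from Slc26a5 in these mice, so its presence is no separate check of cell type. Ocm stood between 32165 CPM (WT 36) and 45793 CPM (WT 11) in the 6 cells. Myo7a, a myosin of the hair bundle, was at 0.0886 CPM in WT cell 32, the lowest of all 65 cells. It was at 51.9 CPM in WT cell 33, beside a median of 229 CPM over the WT cells. Pou4f3, of the outer hair cell list, stood between 627 CPM (WT 33) and 1620 CPM (WT 36) in the 6 cells. Their totals, from 11291286 to 14591181 counts, and genes detected, from 7266 to 8562, also lay within the ranges of all cells.

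**Figure D4:**
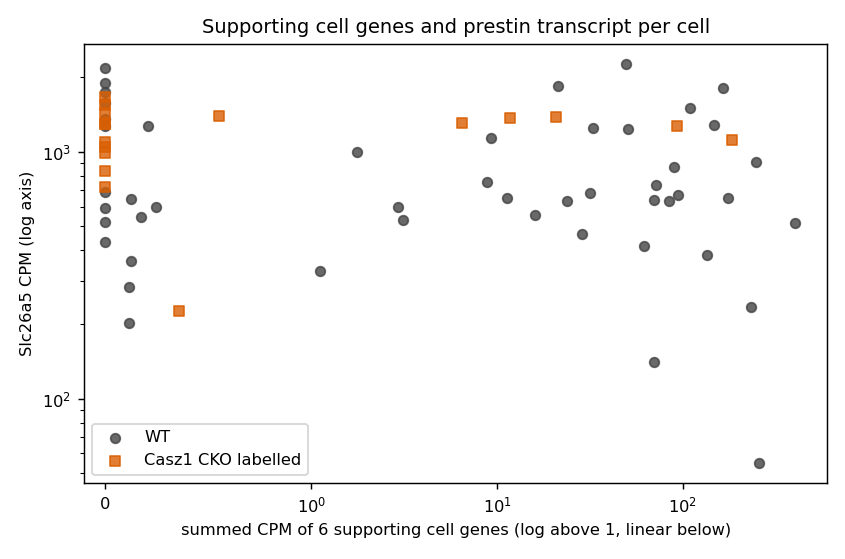
Each point is 1 cell, placed by the summed CPM of the 6 supporting cell genes (logarithmic above 1, linear below) and by Slc26a5 CPM (log axis), WT in grey circles and CKO-labelled in orange squares. Slc26a5 is present from 54.8 CPM upward in every cell, also where the supporting cell sum reaches its highest value of 401.5 CPM in WT cell 33. Its level differed between the runs of WT cells, which are not marked.

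Other supporting cell markers followed the same scattered pattern, with exceptions. Of 28 further genes, 26 had a count, Ngfr and Npy had none, and 11 were measured, 4 with higher and 7 with lower CPM in the CKO-labelled group; the median log2 ratio was -0.11, beside 0.0092 over all 10842 genes at 5 CPM. That median was positive with other sets of cells, at 0.15 within the Xist-pattern cells, 0.32 against WT cells 1 to 11 and 0.94 against WT cells 46 to 48. Otog and S100b were at least 2-fold higher. Smpx (2380 and 2342 CPM), Rorb (391 and 443 CPM) and Sall3 (162 and 167 CPM) were found in every cell of both groups, so their counts were not limited to cells with the members. In these outer hair cells they therefore cannot serve as markers of supporting cells, though they are among the 11 measured genes and enter the medians above. Tectb, a protein of the tectorial membrane, was counted in 20 WT and 5 CKO-labelled cells, with group levels of 49.8 and 34.9 CPM.

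Sox9, a transcription factor that supporting cells keep, was singled out after its values were seen. It was at 10 CPM or more in WT cells 18, 29, 32, 33, 36 and 38, from 15.3 CPM (cell 32) to 215.6 CPM (cell 36), and in CKO-labelled cells 1, 3 and 8, from 16.5 to 66.1 CPM. All 6 WT cells are numbered 12 to 45. Of the 6 cells with Gjb2 at 10 CPM, 4 had Sox9 at that level (66.7%), and of the 6 with Gjb6, 3 did, against 13.8% of all cells. For Fgfr3 it was 17.4%, close to the share of all cells. Of the 25 other markers left when Smpx, Rorb and Sall3 are set aside, a list trimmed after the values were seen, most were below 10 CPM in each of these cells. Sox9 is itself 1 of the 25, so each cell picked for it holds at least 1. WT cell 32 had 6 of the 25 at 10 CPM or more, the highest number of any cell, WT cell 38 had 5, CKO-labelled cell 1 had 4, and WT cells 29, 33 and 36 had 3 each. WT cell 18 had 1, and CKO-labelled cells 3 and 8 had 2 each. WT cells 11, 26 and 40, without Sox9 at 10 CPM, also had 3 each. WT cells 33 and 36 held Lgr5, a receptor of Wnt signalling, at 96.4 and 95.4 CPM, S100b at 72.9 and 54.0 CPM, and the Notch target Hes1 at 78.1 and 2.92 CPM. WT cell 38 held Otogl and Otog, proteins of the acellular gels of the inner ear, at 242 and 54.5 CPM beside Gjb6 at 71.6 CPM. In the CKO-labelled group 2418 of the 2419 counts of S100b came from cell 7. Lgr5, Otog, Otogl and S100b were likewise singled out after their values were seen.

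Markers of the other cell types that a dissected cochlea holds were counted in the same cells. Summed over a list, glia markers ran from 0 to 459.5 CPM per WT cell and from 0 to 245 CPM per CKO-labelled cell, with 3 of 10 measured and Pmp22, Mag and Cldn11 at 0 in all cells. Macrophage markers ran from 0 to 187.7 and from 0 to 73.4 CPM, with 2 of 10 measured and C1qa, Cx3cr1 and Fcer1g at 0. Mesenchyme markers ran from 0 to 715 and from 0 to 374.8 CPM, with 4 of 10 measured and Col3a1 and Pou3f4 at 0. Endothelial markers reached 35.6 and 176 CPM with 1 of 8 measured and Cldn5 at 0, and erythroid markers 83.2 and 49.2 CPM with 0 of 6 measured. Of 10 neuron markers 4 were measured, with sums from 98.9 to 1433 CPM and from 134.9 to 1176 CPM and Gap43 at 0, and of 8 stria vascularis markers 3 were measured, with sums from 78.6 to 874 CPM and from 184 to 993 CPM and Kcne1, Esrrb and Met at 0. The part of RNA from other cells in the members' counts was not tested.

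Of the Notch pathway as a whole, the machinery that cleaves the receptor was well represented, while receptors and most targets were not. Of 49 genes on the list, which includes Dll1, Jag2 and Notch1, 33 were measured, 18 with higher and 15 with lower CPM in the CKO-labelled group, and the median log2 ratio was 0.017. At least 2-fold higher were 2 genes, Dll1 and Jag2, and at least 2-fold lower were 3, Mib2, Rbpj and Kat2b, beside 29.5% of all genes at 5 CPM that differed as much either way.

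Among ligands, Jag1 was detected in 42 of 48 WT cells, and for the CKO-labelled group in 12 of 17, at 16.8 and 15.6 CPM. Dll4 was found in 7 and 4 cells at 6.77 and 12.97 CPM, and Dll3 in 2 WT cells with a group level of 2.68 CPM and in no CKO-labelled cell. Thus 4 of the 5 ligand genes were measured, and 3 were higher in CKO-labelled cells, beside 50.4% of all genes at 5 CPM. With so few genes this count is a description only. Their sum ran from 0 to 277.6 CPM in WT cells, with a median of 13.4, and up to 180.7 CPM, with a median of 85.2 and a lowest value of 0, in the CKO-labelled group.

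All 10 genes of receptor cleavage were measured, 7 with higher and 3 with lower CPM in the CKO-labelled group, none by 2-fold. Of all genes at 5 CPM, 50.4% were higher. The median log2 ratio of the 10 was 0.028, with an interval over the genes of -0.41 to 0.85. Psenen, a subunit of gamma-secretase, was counted in every cell at 96.9 CPM in WT and 99.4 CPM in CKO-labelled cells, and Ncstn, another subunit, in 45 and 17 cells at 67.8 and 69.9 CPM. Aph1c, a further subunit, was at 77.9 and 78.3 CPM. Gamma-secretase also cuts many proteins other than Notch.

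Enzymes that add sugars to Notch were measured for 4 of 5 genes. Rfng was at 69.3 CPM over the WT cells and 38.6 CPM over the CKO-labelled ones, Poglut1 at 55.1 and 67.8 CPM, Mfng at 28.8 and 34.01 CPM and Pofut1 at 5.11 and 7.55 CPM. Lfng, the fringe gene of cochlear supporting cells, had a count in 1 cell of each group. Of the genes of endocytosis and ubiquitination, Numb, an inhibitor of Notch, stood at 70.2 and 90.5 CPM, Mib1, the ligase that activates ligands, at 54.4 and 46.7 CPM, and Itch at 44.8 and 24.8 CPM. Mib2, named after its values were seen, was counted in 30 WT and 6 CKO-labelled cells, with group levels of 39.1 and 5.86 CPM.

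In the nuclear complex 2 of 8 genes had higher and 6 had lower CPM in the CKO-labelled group, beside 50.4% higher among all genes at 5 CPM. The median log2 ratio of the 8 was -0.30, with an interval over the genes of -1.39 to 0.17 that includes 0. Rbpj, the DNA-binding factor, named after its values were seen, was counted in 22 WT and 9 CKO-labelled cells at 12.2 and 4.65 CPM. Maml2, a Mastermind coactivator, was at 86.6 and 77.6 CPM, and Kat2b at 73.4 and 31.2 CPM.

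Target genes were mostly low. Heyl was the exception, counted in 38 WT and 7 CKO-labelled cells, with group levels of 86.4 and 44.8 CPM, a log2 ratio of -0.95. WT cells ran up to 414.8 CPM and CKO-labelled cells up to 228 CPM. Hes1 was counted in 6 WT cells, with a group level of 2.90 CPM, and in no CKO-labelled cell, and Hes5 in 4 and 3 cells at 1.25 and 1.11 CPM. Hey1 and Hey2 had a count in 1 WT cell each, Hes7 in 2 WT cells, Hes2 in 1 WT cell and Hes3 in none. Nrarp, a feedback inhibitor of Notch, was in 1 WT and 2 CKO-labelled cells. Of the 6 WT cells with Hes1, 4 were among the 5 WT cells with several supporting cell genes: WT 33 at 78.1 CPM, WT 32 at 40.5 CPM, WT 8 at 6.92 CPM and WT 36 at 2.92 CPM. This overlap was picked out after the values were seen.

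**Figure D5:**
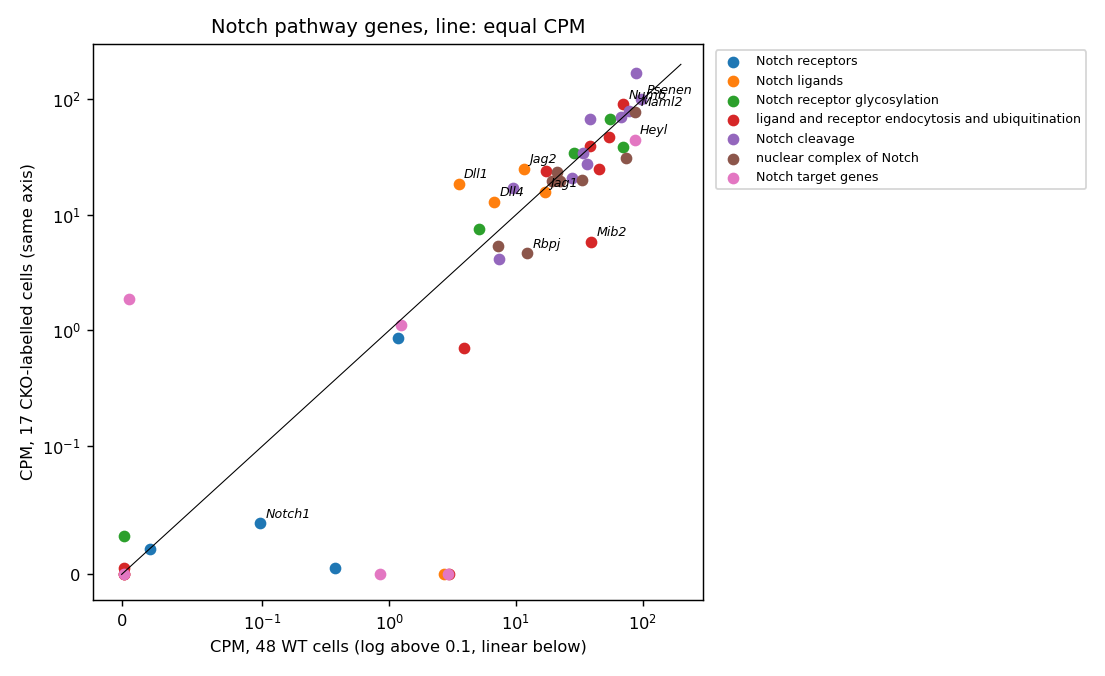
Summed CPM in 17 CKO-labelled cells is plotted against that in 48 WT cells for the 49 Notch pathway genes, coloured by role, on axes that are logarithmic above 0.1 and linear below, with a line at equal CPM. The cleavage genes lie near the line, Dll1 (3.54 and 18.6 CPM) and Jag2 (11.6 and 24.9 CPM) above it, and Mib2, Rbpj and Heyl below it.

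Over the 65 cells no gene followed a member closely. For each member counted in at least 6 cells, Spearman correlations of log2(CPM + 1) were taken with 13871 genes, which share libraries and depth with the member. The 3 highest were Gm19196 (0.49), Zfp706 (0.48) and Klc3 (0.46) for Fgfr3, and Zdhhc24 (0.49), Gm37670 (0.48) and Mfap1b (0.47) for Hes6. They were Gm29084 (0.50), Wdr95 (0.47) and Rplp2 (0.46) for Jag2, and Gm5269 (0.51), Fam209 (0.50) and Lin9 (0.48) for Dll1. For Gjb2 they were Rassf6 (0.57), 4833445I07Rik (0.54) and Cd24a (0.53), and for Gjb6 Vtn (0.51), Sphk2 (0.46) and Atp23 (0.46). Among the members themselves the highest was 0.41, between Sox2 and Gjb2, and it rests on the 2 cells with Sox2. With so many genes and so few cells, correlations of this size are a description only.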

How the data were processed

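Each library is 1 hand-picked outer hair cell; per the labels' protocols its cDNA came from the Smart-Seq HT kit, without molecular identifiers, and was tagmented. The authors deposited whole-number counts per gene for 65 cells. Per the submitters' processing notes, HISAT2 2.2.1, StringTie 2.2.1 and featureCounts 2.0.1 were used on mm10. Annotation, strand setting and filters were not given in the sources used here. Shared protocol text names inner hair cells and induced outer hair cells, and titles and design were followed instead.

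Counts were summed per group and divided by the summed total (CPM). No cell was removed, and picked cells were not screened for doublets. Ratios carry exact conditional intervals, sums exact Poisson and shares exact binomial (Clopper-Pearson) intervals, all at 95%. A group without a count was set to 3 counts. A gene counted as measured at 5 CPM in the higher group. Named genes were the members, up to 4 measured genes with the highest CPM per list, genes of the members' families, and the 3 most correlated genes. Genes named for other reasons were chosen after their values were seen; the list of other supporting cell markers was trimmed for counts per cell only. Some genes of the lists are not reported here. Members, lists and settings were chosen with earlier results of these data known. Positions come from GENCODE M21 (GRCm38). Ratios and intervals were tested on simulated counts that had counting error but no spread between cells, so that test covers counting error only. Python 3.11.15, edgeR 4.0.16 (TMM factors) and DESeq2 1.42.0 (size factors) were used, the last 2 for other settings only: other scale factors, per-cell means, thinning to 1 depth, other limits, Xist-pattern cells, runs of WT cells and leaving out each cell.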

Additional observations from a re-analysis of the deposited data

How the results depend on the processing

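No paired analysis was possible because the numbers in the titles are names of cells and nothing was tested. Of 85 log2 ratios of members under other settings, 6 changed sign from at least 2-fold, and Gjb2, under 2-fold over all cells, changed sign in the Xist-pattern cells (-0.11) and without CKO-labelled cell 1 (-8.10, a bound). Against WT cells 46 to 48 alone, only 3 cells, Fgfr3 was 7.21, Gjb6 3.98 (both bounds) and Jag2 -1.69. Notch1 was 0.90 in the Xist-pattern cells, 1.05 against WT cells 1 to 11 (both bounds), and, leaving out each cell, -2.61 to 0.97, the highest without WT cell 38. Hes6, Dll1 and Sox2 kept their sign in every setting that gave a value. The number of members higher in CKO-labelled cells, 4, ran from 3 to 5. WT cells with several supporting cell genes at 10 CPM were 5 of 48 over all cells and 2 of 9 among Xist-pattern cells. By run they were 2 of 11 (cells 1 to 11), 3 of 34 (cells 12 to 45) and 0 of 3 (cells 46 to 48). Over all WT cells the number was 12 at 1 count and 3 at 50 CPM, and over the CKO-labelled cells 3 at 1 count. Leaving out each cell gave 4 to 5 WT cells and 0 (without cell 1) to 1 CKO-labelled cells. The Notch list median was 0.26 among Xist-pattern cells, and -0.16 to 0.097 leaving out each cell. Of other supporting cell markers, 7 were higher in CKO-labelled cells in the Xist-pattern cells, 7 against WT cells 1 to 11, 9 with any count and 2 at 20 CPM, where a different number of genes was measured, and 2 (without CKO-labelled cell 7) to 5 leaving out each cell; the cause was not tested. TMM, size factors, the reduced total and thinning to 7458126 counts changed no sign of a member. Counts of 1 to 9 reads are near the limit of detection.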
